A study of Mus musculus with 25 samples.

Results

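The TGF-β pathway was followed through 10 genes across mouse group 1 innate lymphoid cells: the ligand Tgfb1, the receptors Tgfbr1 and Tgfbr2, the signal transducers Smad2, Smad3 and Smad4, the inhibitory Smad7, and the nuclear repressors Ski, Skil and Tgif1. They were chosen by name, and all 10 were found by Ensembl identifier among the 46078 genes of the count table. All 10 passed the filter on low counts that left 14123 genes, and none shared its span with another gene of the table.

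TGF-β is secreted in a latent form and, once released, binds the type II receptor TGFBR2, which recruits and phosphorylates the type I receptor TGFBR1. TGFBR1 phosphorylates SMAD2 and SMAD3, which join SMAD4 and regulate genes in the nucleus. SMAD7 blocks the activated receptor, while SKI, SKIL (also called SnoN) and TGIF1 hold SMAD complexes in a repressed state, and SMAD7 and SKIL are known feedback targets of the pathway. In group 1 ILCs the pathway is known for restraining NK cell activity, for sustaining salivary gland cells and for favouring ILC1 over NK features.

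All cells came from wild type C57BL/6 mice and were sorted as CD3-NK1.1+NKp46+. Adult cells, at 8 weeks, were adult liver (AL) 7R- ILC1s (4 libraries) and AL 7R+ ILC1s (3), which lack or carry IL-7R and are CD49a+CD49blo, AL NK cells (2) and bone marrow (BM) NK cells (3), which are CD49a-CD49b+, BM immature ILC1s (iILC1s, 3, CD49a+CD49blo), small intestinal lamina propria (LPL) ILC1s (4, CD27+IL-7R+) and salivary gland (SG) G1-ILCs (2, CD49a+CD49b+). Fetal liver (FL) G1-ILCs, taken at E18.5, are CD49a and CD49b intermediate (4 libraries). The labels give 2000 sorted cells, and the methods of the study fewer. They do not tell which libraries share an animal, so p-values measure the spread between libraries.

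Libraries held 2302643 to 7995906 counts, and FL replicates 2 and 3 differed by less than other replicates and were counted as 1 sample, which left 24 samples. Klrb1c and Ncr1, which encode NK1.1 and NKp46, were detected in every group, and Il7r separated AL 7R- ILC1s (1.71 CPM) from AL 7R+ ILC1s (541 CPM). Fetal liver, adult liver and marrow were dissociated mechanically, whereas gland and intestine were digested with collagenase D, after an EDTA step for the intestine, so tissue and digestion cannot be told apart for LPL ILC1s and SG G1-ILCs. In sorted bulk RNA, fewer cells of a type and less RNA per cell cannot be told apart either.

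Gut and gland cells stood apart first. Tgfb1, Smad7, Ski, Skil and Tgif1 were higher in each of the 6 LPL and SG libraries than in each of the other 18, a pattern that 5.18% of all tested genes shared. Levels are CPM, read counts scaled to the size of each library with TMM factors, and called genes had an adjusted p under 0.05 by edgeR's quasi-likelihood test, adjusted over all tested genes. For any difference among the 8 groups, 10 of 10 members were called, against 77.7% of all genes. In LPL ILC1s over AL 7R+ ILC1s 6 members were higher and 2 lower, against 51.0% of genes called, and in SG G1-ILCs over AL 7R- ILC1s 6 were higher and 1 lower, against 32.4%. Over AL NK cells, SG G1-ILCs had 7 members higher and 2 lower, against 27.0%. SG G1-ILCs over LPL ILC1s had 5 higher and 3 lower, against 35.5%.

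Among cells obtained without enzymes both receptors were called higher in each comparison of ILC1s over NK cells. AL 7R- ILC1s over AL NK cells had Tgfbr1 and Tgfbr2 higher and Smad2, Smad3 and Tgif1 lower, 5 members against 20.4% of all genes called. AL 7R+ ILC1s over AL NK cells had 3 higher (Tgfbr1, Tgfbr2, Ski) and 4 lower (Smad2, Smad3, Skil, Tgif1), against 15.6%. BM iILC1s over BM NK cells had 2 higher, again both receptors, against 12.1%. The BM iILC1 libraries held 11 myeloid markers at 201 to 1484 CPM in sum, with Mpo at 245 ± 424 CPM (SD, n = 3). The sum was 160 to 370 CPM in BM NK cells. Cd3e and Trac measured 147 and 158 CPM in BM iILC1s, against 0.0675 and 16.5 CPM in BM NK cells. The part of such transcripts in the marrow comparison was not tested. BM NK cells over AL NK cells had 0 of 10 called, against 2.58%, by edgeR and by DESeq2. Smad3, Smad7 and Skil had an unadjusted p under 0.05 by edgeR (0.0393, 0.0193 and 0.0162), as did 14.5% of all tested genes.

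FL G1-ILCs over AL 7R- ILC1s had 3 members higher and 5 lower, against 42.6% of genes called. No log2 fold change of a member reached 1 there, where 21.6% of all genes were called with a change of at least 1. AL 7R+ ILC1s over BM iILC1s had 2 higher (Tgfbr1, Ski) and 1 lower (Tgif1), against 8.06%. AL 7R+ ILC1s over AL 7R- ILC1s had 2 higher (Smad7, Tgif1), against 5.28%. The effect of ILC1s over NK cells differed between marrow and liver for 1 member, Tgif1, against 3.09%.

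**Figure D1:**
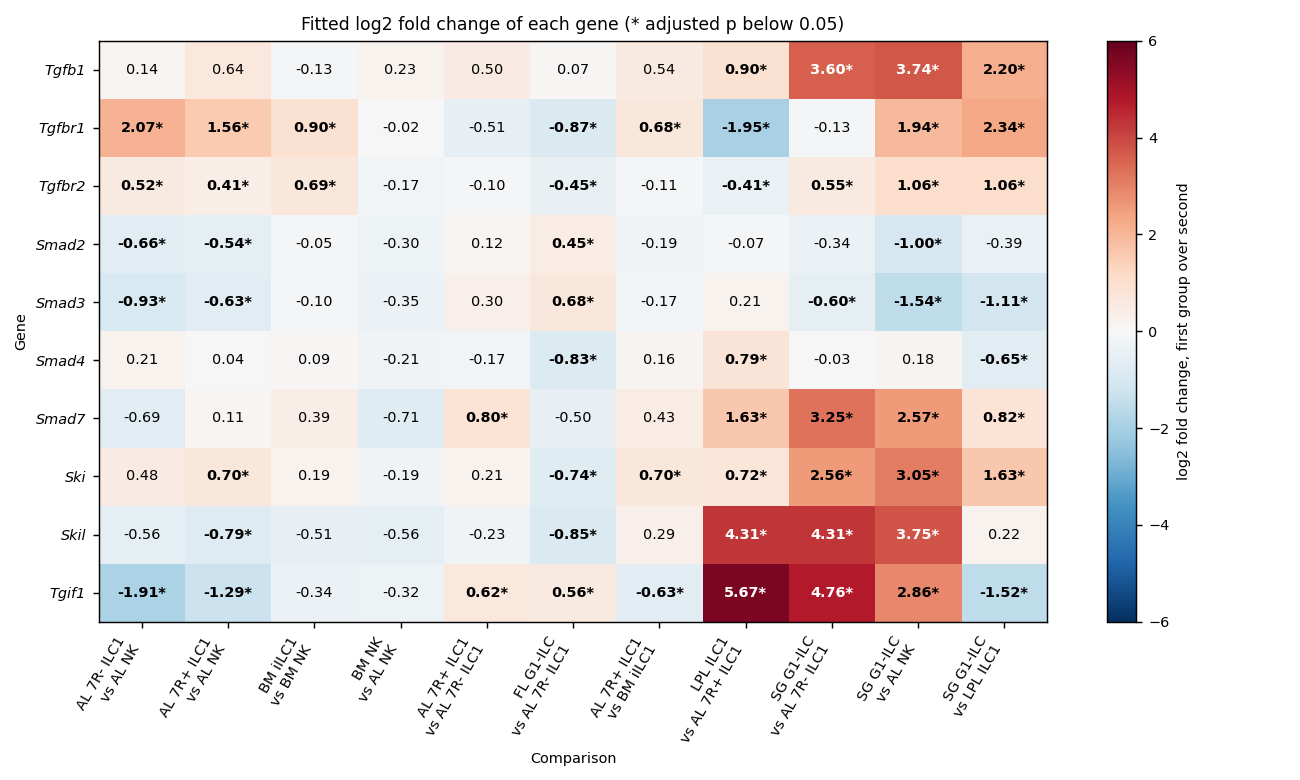
Fitted log2 fold change of the 10 genes (rows) in 11 comparisons (columns), first group over second, with red for higher, blue for lower and an asterisk for an adjusted p under 0.05. The strongest colours are Skil and Tgif1 in LPL ILC1s over AL 7R+ ILC1s (4.31 and 5.67) and in SG G1-ILCs over AL 7R- ILC1s (4.31 and 4.76), and the receptor rows are red in all 3 comparisons of ILC1s over NK cells.

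Tgfb1 (ENSMUSG00000002603, chr7:25687002-25705077, plus strand of GRCm38) encodes the TGF-β1 precursor. It stood at 149 and 171 CPM in the SG libraries and at 31.8, 39.3, 33.8 and 34.6 CPM in the LPL libraries. In the other 18 samples it lay between 8.84 and 23.1 CPM, so that neither gland nor gut overlapped them or each other. SG G1-ILCs exceeded AL 7R- ILC1s by a log2 fold change of 3.60 ± 0.24 (SE, adjusted p = 2.35e-12, edgeR) and LPL ILC1s by 2.20 ± 0.23 (adjusted p = 1.71e-08, edgeR). LPL ILC1s exceeded AL 7R+ ILC1s by 0.90 ± 0.22 (adjusted p = 0.00142, edgeR). No call was made for Tgfb1 among the other 6 groups, whose libraries overlapped at each step of the order of their means. The SG libraries also held the macrophage genes C1qb (186 ± 36.7 CPM, SD, n = 2), Csf1r (134 ± 2.82) and Cd14 (269 ± 158), and their 11 myeloid markers summed to 788 to 926 CPM with S100a8 and S100a9 at 0. The part of these transcripts in the gland level of Tgfb1, or of any other member, was not tested. The sum was 11.5 to 29.9 CPM in LPL ILC1s.

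Tgfbr1 (ENSMUSG00000007613, chr4:47353222-47414931, plus strand), the type I receptor kinase, separated ILC1s from NK cells. Among liver ILC1s it measured 183, 161, 116 and 95.7 CPM in the 7R- and 88.7, 98.9 and 105 CPM in the 7R+ cells, against 28.5 and 38.1 CPM in AL NK cells. BM iILC1s had 46.3, 64.6 and 71.7 CPM against 37.0, 34.9 and 25.9 CPM in BM NK cells. In both tissues each ILC1 library lay above each NK library. The log2 fold change over NK cells was 2.07 ± 0.24 for AL 7R- ILC1s (adjusted p = 1.86e-07, edgeR), 1.56 ± 0.24 for AL 7R+ ILC1s (adjusted p = 2.57e-05) and 0.90 ± 0.21 for BM iILC1s (adjusted p = 0.00401). The difference between marrow and liver for Tgfbr1, −0.66 ± 0.32, missed the threshold (adjusted p = 0.387, edgeR).

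LPL ILC1s were the exception among ILC1s. Their Tgfbr1 level of 26.8, 20.4, 25.7 and 27.7 CPM was at or below that of the NK cells and 3.88-fold below that of AL 7R+ ILC1s (log2 fold change −1.95 ± 0.20, adjusted p = 6.44e-09, edgeR), although both populations carry IL-7R. SG G1-ILCs had 109 and 145 CPM, within the range of AL 7R- ILC1s, and exceeded LPL ILC1s by 2.34 ± 0.22 (adjusted p = 2.30e-09, edgeR). FL G1-ILCs had 72.0, 83.8 and 72.4 CPM, below each AL 7R- ILC1 library (log2 fold change −0.87 ± 0.19, adjusted p = 5.22e-04, edgeR). The higher level in AL 7R+ ILC1s than in BM iILC1s, 0.68 ± 0.20 (adjusted p = 0.0344, edgeR), was lost without AL 7R+ ILC1 replicate 2 or 3 or BM iILC1 replicate 1 or 2, with adjusted p up to 0.209.

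Tgfbr2 (ENSMUSG00000032440, chr9:116084293-116175360, minus strand), the ligand-binding type II receptor, was the most even of the receptors and had its highest group mean only 2.36 times its lowest. SG G1-ILCs had 277 and 333 CPM, above each other library. AL 7R- ILC1s (190 to 239 CPM), AL 7R+ ILC1s (189 to 199 CPM) and BM iILC1s (197 to 217 CPM) overlapped each other and lay above the NK cells of their own tissue, which had 165 and 125 CPM in liver and 122, 125 and 140 CPM in marrow. The log2 fold change over NK cells was 0.69 ± 0.12 in BM iILC1s (adjusted p = 1.54e-04, edgeR), 0.52 ± 0.13 in AL 7R- ILC1s (adjusted p = 0.004) and 0.41 ± 0.13 in AL 7R+ ILC1s (adjusted p = 0.0357). Both liver values rested on AL NK replicate 2, without which they were 0.33 (adjusted p = 0.208) and 0.22 (adjusted p = 0.497), and the one of AL 7R+ ILC1s was also lost without any 1 of the AL 7R+ ILC1 libraries (adjusted p = 0.0538 to 0.0854) or with no filter on low counts (adjusted p = 0.139). The marrow value passed in each fit that left out 1 library.

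Tgfbr2 fell in LPL ILC1s against AL 7R+ ILC1s by 0.41 on the log2 scale (SE 0.11, adjusted p = 0.00324, edgeR) and in FL G1-ILCs against AL 7R- ILC1s by 0.45 (SE 0.11, adjusted p = 0.00193). In SG G1-ILCs it exceeded LPL ILC1s by 1.06 ± 0.12 (adjusted p = 1.11e-07, edgeR) and AL 7R- ILC1s by 0.55 ± 0.12 (adjusted p = 0.00103), the latter not without SG replicate 2 (0.41, adjusted p = 0.0683). Levels per kilobase of exon were used to set genes side by side. The length counts all annotated exons of a gene, whichever isoforms are expressed, so such comparisons are approximate. On this scale AL NK cells held 17.8 CPM of Tgfbr2 and 5.10 CPM of Tgfbr1, whereas AL 7R- ILC1s held 25.5 and 21.3 CPM. LPL ILC1s held 17.8 CPM per kilobase of Tgfbr2 and 3.85 of Tgfbr1.

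**Figure D2:**
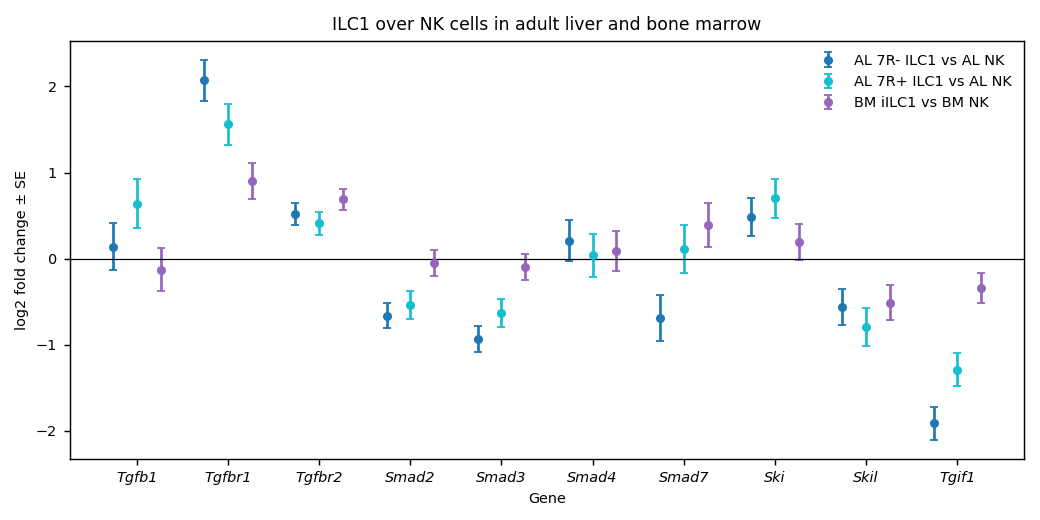
Fitted log2 fold change with its SE (y axis) of each of the 10 genes (x axis) for both liver ILC1 populations over AL NK cells and for BM iILC1s over BM NK cells. Tgfbr1 and Tgfbr2 lie above 0 in all 3, and Tgif1 runs from −1.91 in AL 7R- ILC1s to −0.34 in BM iILC1s.

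Smad3 (ENSMUSG00000032402, chr9:63646767-63757994, minus strand), a receptor-regulated SMAD that binds DNA, ran opposite to the receptors in liver. AL NK cells had 215 and 262 CPM, AL 7R+ ILC1s 141, 169 and 152 CPM, AL 7R- ILC1s 109, 118, 136 and 136 CPM and SG G1-ILCs 75.6 and 88.7 CPM. None of these 4 ranges overlapped. The log2 fold change over AL NK cells was −0.93 ± 0.15 in AL 7R- ILC1s (adjusted p = 3.91e-05, edgeR), −0.63 ± 0.16 in AL 7R+ ILC1s (adjusted p = 0.00745) and −1.54 ± 0.19 in SG G1-ILCs (adjusted p = 4.32e-07). The step from AL 7R+ to AL 7R- ILC1s missed the threshold (0.30 ± 0.14, adjusted p = 0.275), and the one of AL 7R+ ILC1s below AL NK cells was lost without AL NK replicate 2 (−0.49, adjusted p = 0.158). SG G1-ILCs fell below AL 7R- ILC1s by 0.60 (SE 0.17, adjusted p = 0.00639, edgeR), though not without SG replicate 1 (−0.50, adjusted p = 0.121).

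In marrow no such difference was detected: Smad3 measured 217, 157 and 146 CPM in BM iILC1s and 187, 194 and 179 CPM in BM NK cells, with a log2 fold change of −0.10 ± 0.15 (adjusted p = 0.778, edgeR). The test of marrow against liver itself gave 0.53 ± 0.22 (adjusted p = 0.28, edgeR), so the tissues were not shown to differ. FL G1-ILCs had 212, 203 and 183 CPM, above each AL 7R- ILC1 library by a log2 fold change of 0.68 ± 0.14 (adjusted p = 2.47e-04, edgeR). LPL ILC1s had 180, 199, 202 and 131 CPM and SG G1-ILCs lay below them by a log2 fold change of −1.11 ± 0.17 (adjusted p = 8.81e-06, edgeR).

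Smad2 (ENSMUSG00000024563, chr18:76241580-76310963, plus strand), the other receptor-regulated SMAD, followed Smad3 in liver with smaller differences. AL NK cells had 102 and 90.1 CPM against 47.7, 63.2, 59.0 and 72.9 CPM in AL 7R- ILC1s and 65.2, 69.3 and 64.0 CPM in AL 7R+ ILC1s, with no overlap. The log2 fold changes were −0.66 ± 0.15 (adjusted p = 0.00208, edgeR) and −0.54 ± 0.16 (adjusted p = 0.0222). Both were lost without AL NK replicate 1, at −0.57 (adjusted p = 0.0605) and −0.45 (adjusted p = 0.232). The second also depended on replicates 1 and 3 of the AL 7R+ ILC1s, without which the adjusted p was 0.0598 and 0.0647, and on the filter on low counts (0.139 without it). SG G1-ILCs, at 50.8 and 45.2 CPM, had the lowest mean and were called lower than AL NK cells (adjusted p = 1.60e-04, edgeR). FL G1-ILCs, at 79.3 to 88.9 CPM, exceeded AL 7R- ILC1s by 0.45 ± 0.14 (adjusted p = 0.00958, edgeR), but by 0.30 (adjusted p = 0.0825) without AL 7R- ILC1 replicate 1. Per kilobase, Smad3 stood above Smad2 in each group, at 43.1 against 10.9 CPM in AL NK cells and 14.8 against 5.47 CPM in SG G1-ILCs.

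Smad4 (ENSMUSG00000024515, chr18:73639009-73703780, minus strand), the common partner of both, hardly varied among adult liver and marrow groups, whose means ran from 33.1 to 44.4 CPM with no call in any comparison of the 5. LPL ILC1s were highest with 54.0, 49.6, 83.4 and 84.5 CPM, a log2 fold change of 0.79 ± 0.21 over AL 7R+ ILC1s (adjusted p = 0.00329, edgeR). FL G1-ILCs were lowest with 20.4, 25.2 and 29.1 CPM and fell below AL 7R- ILC1s by 0.83 on the log2 scale (SE 0.22, adjusted p = 0.0031, edgeR). SG G1-ILCs, at 44.8 and 41.9 CPM, lay below LPL ILC1s (−0.65 ± 0.25, adjusted p = 0.0431, edgeR), a call that 6 of the 24 fits without 1 library did not give (without LPL replicate 3 or 4, AL NK replicate 1 or 2, or SG replicate 1 or 2, with adjusted p up to 0.233).

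Smad7 (ENSMUSG00000025880, chr18:75367529-75395935, plus strand), the inhibitory SMAD, measured 155 and 129 CPM in SG G1-ILCs and 76.1, 77.4, 83.1 and 84.8 CPM in LPL ILC1s. The other 18 samples held 7.61 to 28.9 CPM. The log2 fold change was 3.25 ± 0.25 in SG G1-ILCs over AL 7R- ILC1s (adjusted p = 5.94e-11, edgeR) and 1.63 ± 0.24 in LPL ILC1s over AL 7R+ ILC1s (adjusted p = 1.93e-06). The gland exceeded the gut by 0.82 ± 0.24 (adjusted p = 0.00919, edgeR), a call lost without SG replicate 1 (0.71, adjusted p = 0.114). In liver, AL 7R+ ILC1s had 21.0, 28.9 and 27.5 CPM and AL 7R- ILC1s 14.4, 17.7, 8.54 and 19.6 CPM, which did not overlap (log2 fold change 0.80 ± 0.24, adjusted p = 0.0485, edgeR). That call stood next to the threshold and was lost in 16 of the 24 fits without 1 library, with adjusted p up to 0.183 without AL 7R- ILC1 replicate 3.

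Ski (ENSMUSG00000029050, chr4:155154075-155222592, minus strand), a repressor that binds SMAD complexes, measured 288 and 264 CPM in SG G1-ILCs and 78.4, 83.5, 78.0 and 116 CPM in LPL ILC1s, against 25.3 to 67.3 CPM elsewhere. SG G1-ILCs exceeded AL 7R- ILC1s 5.91-fold (log2 fold change 2.56 ± 0.20, adjusted p = 5.95e-11, edgeR) and LPL ILC1s 3.10-fold (1.63 ± 0.20, adjusted p = 1.96e-07). LPL ILC1s exceeded AL 7R+ ILC1s by 0.72 ± 0.19 (adjusted p = 0.00238, edgeR). Smaller differences were called for AL 7R+ ILC1s over BM iILC1s (0.70 ± 0.20, adjusted p = 0.0309) and over AL NK cells (0.70 ± 0.23, adjusted p = 0.0395). The first was lost without AL 7R+ ILC1 replicate 2 or 3 or BM iILC1 replicate 1 or 2 (adjusted p up to 0.161). The second was lost without AL 7R+ ILC1 replicate 2 or 3 or either library of AL NK cells or SG G1-ILCs (adjusted p up to 0.252). FL G1-ILCs, at 25.4, 28.8 and 29.8 CPM, lay below each AL 7R- ILC1 library (−0.74 ± 0.20, adjusted p = 0.0033, edgeR).

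Skil (ENSMUSG00000027660, chr3:31095058-31122577, plus strand), the close relative of Ski and a feedback target of the pathway, had 1073, 1212, 881 and 1037 CPM in LPL ILC1s and 1125 and 1330 CPM in SG G1-ILCs. All other samples held 25.9 to 92.9 CPM. The log2 fold change was 4.31 ± 0.21 in LPL ILC1s over AL 7R+ ILC1s (adjusted p = 1.76e-15, edgeR) and 4.31 ± 0.20 in SG G1-ILCs over AL 7R- ILC1s (adjusted p = 1.06e-15), 19.8-fold in each. Gland and gut overlapped and were not called different (0.22 ± 0.19, adjusted p = 0.38, edgeR). Among the others, AL NK cells were highest with 92.9 and 89.4 CPM and FL G1-ILCs lowest with 30.9, 45.3 and 25.9 CPM. AL 7R+ ILC1s, at 51.8, 70.2 and 38.7 CPM, fell below AL NK cells by 0.79 on the log2 scale (SE 0.22, adjusted p = 0.0128, edgeR), a call lost without AL 7R+ ILC1 replicate 3 or either AL NK library (adjusted p = 0.0552 to 0.0954). FL G1-ILCs fell below AL 7R- ILC1s by 0.85 (SE 0.20, adjusted p = 8.67e-04, edgeR).

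Tgif1 (ENSMUSG00000047407, chr17:70844205-70853546, minus strand), a homeodomain repressor that competes for SMAD2 and SMAD3 complexes, had the widest range of the 10. It measured 823, 1004, 895 and 888 CPM in LPL ILC1s and 295 and 333 CPM in SG G1-ILCs, against 8.95 to 45.7 CPM elsewhere, and its highest group mean was 78.2 times its lowest. LPL ILC1s exceeded AL 7R+ ILC1s 50.8-fold (log2 fold change 5.67 ± 0.18, adjusted p = 4.25e-19, edgeR) and SG G1-ILCs exceeded AL 7R- ILC1s 27.2-fold (4.76 ± 0.17, adjusted p = 1.33e-17). Unlike Tgfb1, Smad7 and Ski, Tgif1 was lower in gland than in gut (−1.52 ± 0.17, adjusted p = 3.45e-08, edgeR), and the libraries did not overlap.

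Tgif1 also graded the cells obtained without enzymes. AL NK cells had 42.6 and 44.1 CPM, BM NK cells 29.3, 29.2 and 45.7 CPM, BM iILC1s 28.7, 26.1 and 27.4 CPM, AL 7R+ ILC1s 16.5, 14.3 and 21.3 CPM, FL G1-ILCs 19.6, 13.0 and 18.9 CPM and AL 7R- ILC1s 8.95, 12.8, 10.6 and 13.8 CPM. Between neighbours of this order, only BM iILC1s over AL 7R+ ILC1s (0.63 ± 0.18, adjusted p = 0.0285, edgeR) and FL G1-ILCs over AL 7R- ILC1s (0.56 ± 0.19, adjusted p = 0.0175) were called, and the libraries of the latter pair overlapped. Liver ILC1s fell well below AL NK cells, by 1.91 on the log2 scale in AL 7R- ILC1s (SE 0.19, adjusted p = 1.17e-08, edgeR) and by 1.29 in AL 7R+ ILC1s (SE 0.19, adjusted p = 1.33e-05), and both calls passed without any 1 library. In marrow the value was −0.34 ± 0.17 (adjusted p = 0.252). The difference between marrow and liver, with AL 7R+ ILC1s as the liver ILC1s, was 0.95 ± 0.26 (adjusted p = 0.0399), and 11 of 24 fits without 1 library did not give it, with adjusted p up to 0.144 without AL NK replicate 2.

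The small differences of Tgif1 among ILC1s were less firm. The 7R+ over the 7R- liver ILC1s gave 0.62 ± 0.18 (adjusted p = 0.0473, edgeR), which 16 of 24 fits without 1 library did not give, with adjusted p up to 0.397 without AL 7R+ ILC1 replicate 3. FL G1-ILCs over AL 7R- ILC1s was lost without AL 7R- ILC1 replicate 1 or 3 or FL replicate 1 or 4 (adjusted p = 0.0519 to 0.102). BM iILC1s over AL 7R+ ILC1s was lost without AL 7R+ ILC1 replicate 1 or 2 or any BM iILC1 library (adjusted p = 0.0533 to 0.144).

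**Figure D3:**
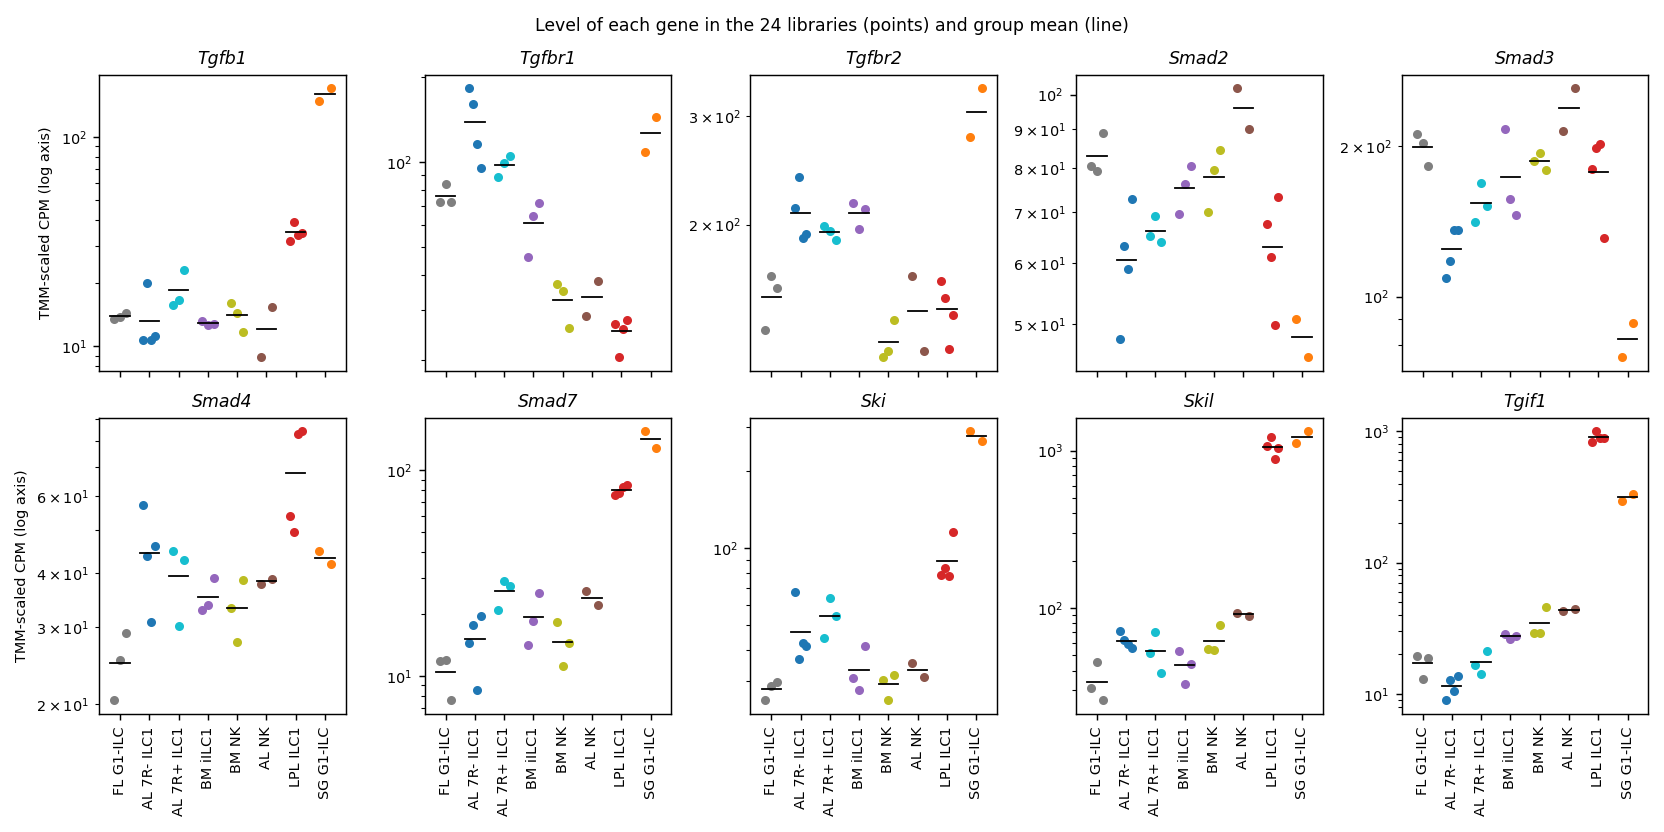
Level of each of the 10 genes in TMM-scaled CPM (y axes, logarithmic, each with its own range) in the 24 samples (points) of 8 groups (x axis), with the group mean as a line. LPL and SG samples lie above all others for Tgfb1, Smad7, Ski, Skil and Tgif1, while Tgfbr1 in LPL ILC1s, at 20.4 to 27.7 CPM, lies at or below the NK cells.

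Gland and gut cells had these 5 genes in different proportion. Against its liver counterpart, the gland rose by 3.60 for Tgfb1, 3.25 for Smad7 and 2.56 for Ski, where the gut rose by 0.90, 1.63 and 0.72. For Skil the values were equal at 4.31, and for Tgif1 the gut was higher. The direct comparison of gland with gut called Tgfb1, Smad7 and Ski higher in the gland and Tgif1 higher in the gut.

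**Figure D4:**
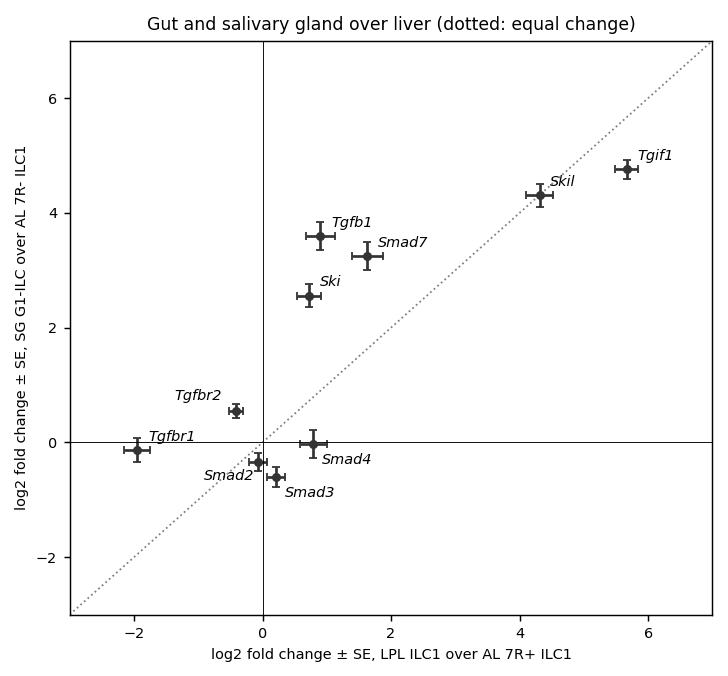
Fitted log2 fold change with its SE of the 10 genes in LPL ILC1s over AL 7R+ ILC1s (x axis) and in SG G1-ILCs over AL 7R- ILC1s (y axis), with a dotted line of equal change. Skil lies on the line at 4.31, Tgfb1, Smad7 and Ski lie above it, Tgif1 below it, and Tgfbr1 has −1.95 in gut and −0.13 in gland.

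Beside this rise, 19 immediate early and stress genes such as Fos, Jun, Egr1 and Hspa1a, a list made after the members' counts had been seen, summed to 27293 to 33876 CPM in LPL ILC1s and 23310 to 25831 CPM in SG G1-ILCs. The other groups held 1253 to 2434 CPM. In LPL ILC1s over AL 7R+ ILC1s 17 of the 19 were higher and 0 lower, 89.5% against 51.0% of all genes (median log2 fold change 5.11, against −0.02). In SG G1-ILCs over AL 7R- ILC1s 18 were higher and 0 lower, 94.7% against 32.4% (median 4.26, against −0.03). Their part in the levels of Smad7, Ski, Skil, Tgif1 and Tgfb1 was not tested. AL NK cells, with 2061 to 2434 CPM, held the highest sums outside gut and gland, and also more Tgif1 than liver ILC1s. Against them 10 of the 19 were called lower and 1, Jun, higher (2.44 ± 0.19) in the 7R- ILC1s of the liver, 57.9% against 20.4% of all genes, and 8 lower and 0 higher in the 7R+ ILC1s, 42.1% against 15.6%. The part of these genes in that difference of Tgif1 was not tested. In marrow, BM NK cells and BM iILC1s had mean sums of 1470 and 1356 CPM and mean Tgif1 levels of 34.8 and 27.4 CPM. AL 7R- ILC1s had a mean sum of 1534 CPM and a mean Tgif1 level of 11.5 CPM. In SG G1-ILCs over LPL ILC1s 7 of the 19 were higher and 4 lower, 57.9% against 35.5%.

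The gut libraries also carried 8 markers of ILC2s and ILC3s at 49.6 to 259 CPM in sum, against 1.68 to 38.8 CPM elsewhere, led by Il22 (106 ± 80.8 CPM, SD, n = 4). The part of such cells in the gut levels was not tested.

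**Figure D5:**
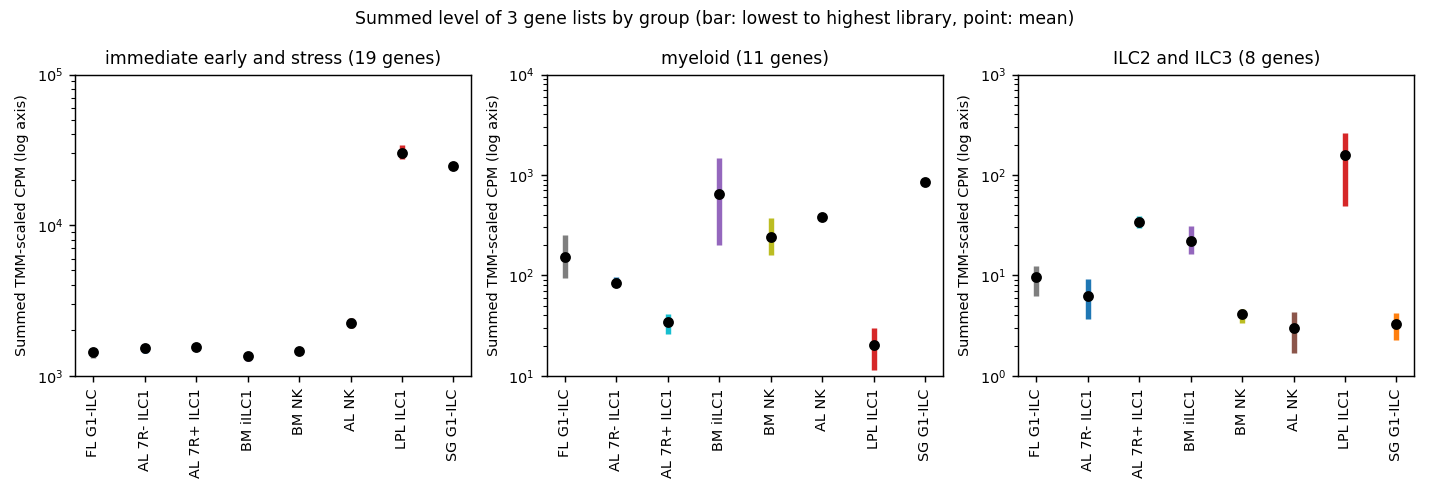
Summed TMM-scaled CPM (y axes, logarithmic) of the immediate early and stress genes, the myeloid markers and the ILC2 and ILC3 markers in the 8 groups (x axis), with a bar from the lowest to the highest library and a point for the mean. The first sum is at least 23310 CPM in LPL and SG libraries and at most 2434 CPM in all others, the second is lowest in LPL ILC1s, and the third is highest there.

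The rest of the pathway was taken from lists written from general knowledge, with 99 further genes of which 78 passed the filter. In LPL ILC1s over AL 7R+ ILC1s 29 were higher and 16 lower, 57.7% called against 51.0% of all genes (median log2 fold change 0.41, against −0.02 over all tested genes). In SG G1-ILCs over AL 7R- ILC1s 31 were higher and 12 lower, 55.1% against 32.4% (median 0.33, against −0.03). SG G1-ILCs over AL NK cells had 30 higher and 10 lower, 51.3% against 27.0% (median 0.62, against −0.02), and SG G1-ILCs over LPL ILC1s 23 higher and 26 lower, 62.8% against 35.5% (median −0.10, against 0.03). Negative regulators of the pathway were among them. Pmepa1, a membrane protein that traps SMAD2 and SMAD3, rose by 5.34 ± 0.35 on the log2 scale in the gut and 6.93 ± 0.34 in the gland (adjusted p = 4.70e-15, edgeR). Ldlrad4, a relative of Pmepa1, rose by 1.68 ± 0.26 and 7.07 ± 0.29. Bambi, a receptor without a kinase domain, had 53.8 CPM in LPL ILC1s and 93.7 CPM in SG G1-ILCs against 0.721 and 0.512 CPM in AL 7R+ and AL 7R- ILC1s, and was called in both. Pmepa1 in both comparisons, Ldlrad4 in the gut, Tgfbr3 and Acvr2a were picked for mention after their values were seen.

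Other genes differed between gland and gut. Tgfbr3, the coreceptor betaglycan, had 36.0 CPM in SG G1-ILCs and at most 2.94 CPM as the mean of any other group, and was called higher than in LPL ILC1s (adjusted p = 3.52e-08, edgeR). Itgae, which encodes the integrin CD103 and is a classical TGF-β target, had 724 CPM in SG G1-ILCs against 2.19 CPM in LPL ILC1s (log2 fold change 8.38 ± 0.39, adjusted p = 3.39e-15). Acvr2a, an activin receptor, measured 54.1 CPM in gland and 46.3 CPM in gut, not called different (0.23 ± 0.27, adjusted p = 0.552). Furin, a protease that cleaves the ligand precursor, was lower in gland than in gut (−3.05 ± 0.24, adjusted p = 1.35e-10), as was Myc (−4.01 ± 0.17, adjusted p = 4.72e-16).

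These counts include genes known to respond to TGF-β, of which 20 of 21 were tested. In LPL ILC1s over AL 7R+ ILC1s 13 were higher and 3 lower (median 1.96, 80.0% called against 51.0%), and in SG G1-ILCs over AL 7R- ILC1s 13 were higher and 2 lower (median 2.73, 75.0% against 32.4%). Cdkn1a, an inhibitor of the cell cycle, rose by 8.19 ± 0.31 and 7.18 ± 0.31, and Junb by 6.27 ± 0.09 and 5.51 ± 0.08, the latter also counted among the immediate early genes. The list holds genes that TGF-β raises and genes that it lowers, so its counts carry no direction of signalling.

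Between ILC1s and NK cells the calls went both ways. Of the 78, AL 7R- ILC1s over AL NK cells had 15 higher and 20 lower, 44.9% called against 20.4% of all genes (median −0.08, against 0.01). AL 7R+ ILC1s over AL NK cells had 14 and 14, 35.9% against 15.6%, and BM iILC1s over BM NK cells 12 and 7, 24.4% against 12.1%. Itga1, which encodes the gate marker CD49a and so was selected by the sort, was higher in ILC1s. Klf2 and S1pr5, genes of cell egress, were lower in AL 7R- ILC1s (−7.52 ± 0.23 and −6.16 ± 0.27). Bmp7, a ligand of the BMP branch, had 10.3 CPM in AL 7R- ILC1s, 52.0 CPM in AL 7R+ ILC1s and 56.5 CPM in BM iILC1s against 0.51 CPM in AL NK cells and 2.19 CPM in BM NK cells. Tgfb3 had 0.0983 CPM in AL 7R- ILC1s and 4.61 CPM in AL 7R+ ILC1s, against 7.62 CPM in AL NK cells. It had 14.1 CPM in BM iILC1s, 9.66 CPM in BM NK cells, 14.0 CPM in LPL ILC1s, 8.08 CPM in SG G1-ILCs and 22.4 CPM in FL G1-ILCs. Tgfb2 was at or below 0.83 CPM in each group. Mmp9, a protease that can release latent TGF-β, had 443 CPM in AL 7R+ ILC1s, 80.5 CPM in AL 7R- ILC1s and under 0.1 CPM in both NK groups.

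Smad1 and Smad5 ranged from 11.3 to 43.1 and from 28.4 to 48.8 CPM between group means, and neither, both SMADs of the BMP branch, was called in AL 7R- ILC1s over AL NK cells, in LPL ILC1s over AL 7R+ ILC1s or in SG G1-ILCs over AL 7R- ILC1s. In FL G1-ILCs over AL 7R- ILC1s Smad1 was called lower (−1.29 ± 0.30, adjusted p = 8.36e-04, edgeR). Smad6 and Smad9 did not pass the filter and stayed below 0.7 CPM in each group. FL G1-ILCs over AL 7R- ILC1s had 18 of the 78 higher and 27 lower, 57.7% called against 42.6% of all genes (median −0.29, against −0.06). AL 7R+ over AL 7R- ILC1s had 10 and 5 (19.2% against 5.28%), AL 7R+ ILC1s over BM iILC1s 9 and 9 (23.1% against 8.06%), and BM NK over AL NK cells 2 and 8 (12.8% against 2.58%). The effect of ILC1s over NK cells differed between marrow and liver for 12 of the 78 (15.4% against 3.09%), 8 with a higher and 4 with a lower value in marrow, among them S1pr5 (4.42 ± 0.45, adjusted p = 3.74e-07, edgeR) and Klf2 (3.51 ± 0.25, adjusted p = 1.02e-09).

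Likeness between genes was described by Pearson's r of log2 CPM over the 24 samples, with no test, since the points share groups and libraries. Skil and Tgif1 were most alike each other (r = 0.93), Tgfb1 and Ski likewise (r = 0.90), and Smad7 was most like Skil (r = 0.92). All 3 values rested on the 6 gut and gland libraries, and over the other 18 they were 0.20, 0.10 and 0.38. The receptors kept their likeness, at 0.73 over 24 samples and 0.70 over 18, as did Smad2 with Smad3 (0.67 and 0.76) and, with opposite sign, Tgfbr2 with Smad3 (−0.78 and −0.69). Tgfbr1 and Tgif1 ran opposite to each other over the 18 libraries (r = −0.92), and less so over all 24 (r = −0.57), where gut and gland differed in Tgfbr1.

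Among 24-sample profiles of genes with an average log2 CPM of at least 5, Tgif1 was most like Ubald2 (r = 0.99), Junb (0.99) and Dusp5 (0.98), which held over the 18 samples at 0.89, 0.89 and 0.68. Skil was most like Fosl2 (0.99), P2ry10 (0.99) and Plcxd2 (0.98), with 0.74, 0.81 and 0.72 over the 18. Smad7 was most like P2ry10 (0.95), Mafk (0.94) and Pmepa1 (0.94), with 0.62, 0.62 and 0.48 over the 18. Ski was most like N4bp2l1 (0.93), Fth1 (0.93) and Vgll4 (0.92), with 0.57, 0.62 and 0.70 over the 18, and Tgfb1 like Cst3 (0.94) and Josd1 (0.93), each of the last pair at 0.16 over the 18. Tgfbr1 was most like Gng2 (0.93), Cd7 (0.92) and Abr (0.90), and Tgfbr2 was like Hivep3 (0.83) and Slc25a1 (0.82). Smad4 was most like the MHC class I genes H2-K1 (0.88), H2-D1 (0.87) and H2-Q6 (0.86), which can share reads and are uncertain for that reason. Smad2 was most like Mta2, Ranbp3 and Cdc25b (0.82, 0.81 and 0.80) and Smad3 like Il18rap, Rasgrp2 and Iqgap2 (0.83, 0.82 and 0.80).

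Across genes, per kilobase of exon, the order changed between tissues. In AL NK cells Smad3 (43.1 CPM per kilobase) led, followed by Tgfbr2 (17.8), Smad2 (10.9) and Smad4 (10.3), with Skil at 9.40 and Tgif1 at 7.71. In LPL ILC1s Tgif1 (160 ± 13.4, SD, n = 4) and Skil (108 ± 14.0) led, ahead of Smad3 (32.1). In SG G1-ILCs Skil (127 ± 15.0, n = 2) led, followed by Tgif1 (55.8), Ski (49.6), Tgfbr2 (37.2), Tgfb1 (31.7) and Smad7 (31.5), with Smad2 last at 5.47. Skil and Tgif1 thus lay above each SMAD per length in gut and gland, and all 3 repressors lay below Smad3 in each other group.

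Promoter sequence from RefSeq (GRCm38.p6) was searched for 6 members: Tgfb1, Tgfbr1, Tgfbr2, Smad3, Ski and Tgif1. Smad2, Smad4 and Smad7 were left out of the search, and no promoter was found for Skil. The results below therefore say nothing about the promoters of Smad2, Smad4, Smad7 and Skil. The 250 bases before the most upstream start were searched on both strands for CAGAC, the core that SMADs bind, its palindrome GTCTAGAC, the GC-rich GGCGC and TGTCA, the letters that TGIF1 binds, none of which contains another. Tgif1 and Tgfb1 are shown since both rose in gut and gland, and Tgfbr1 and Tgfbr2 since they parted ILC1s from NK cells. Each runs 5′ to 3′ on the strand of the gene, with CAGAC or its reverse complement in capitals. Each stops at the RefSeq start or, where the annotated first exon begins before that start, as in Tgif1, at the exon. Shown are Tgif1 chr17:70853547-70853782 (minus strand), Tgfb1 chr7:25686752-25687001 (plus), Tgfbr1 chr4:47352972-47353221 (plus) and Tgfbr2 chr9:116175364-116175613 (minus).
Tgif1: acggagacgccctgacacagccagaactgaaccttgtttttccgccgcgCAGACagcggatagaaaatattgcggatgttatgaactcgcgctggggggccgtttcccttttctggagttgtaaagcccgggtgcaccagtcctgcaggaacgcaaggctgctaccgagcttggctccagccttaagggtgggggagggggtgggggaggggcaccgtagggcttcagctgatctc
Tgfb1: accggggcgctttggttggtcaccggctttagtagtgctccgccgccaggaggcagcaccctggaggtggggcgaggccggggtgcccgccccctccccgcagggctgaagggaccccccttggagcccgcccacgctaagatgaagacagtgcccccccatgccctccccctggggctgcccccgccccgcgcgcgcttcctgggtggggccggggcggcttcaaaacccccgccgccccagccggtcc
Tgfbr1: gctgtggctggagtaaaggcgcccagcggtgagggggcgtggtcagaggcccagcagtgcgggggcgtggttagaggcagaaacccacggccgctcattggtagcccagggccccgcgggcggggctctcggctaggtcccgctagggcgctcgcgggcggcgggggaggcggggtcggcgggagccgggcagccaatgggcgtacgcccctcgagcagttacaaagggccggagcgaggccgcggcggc
Tgfbr2: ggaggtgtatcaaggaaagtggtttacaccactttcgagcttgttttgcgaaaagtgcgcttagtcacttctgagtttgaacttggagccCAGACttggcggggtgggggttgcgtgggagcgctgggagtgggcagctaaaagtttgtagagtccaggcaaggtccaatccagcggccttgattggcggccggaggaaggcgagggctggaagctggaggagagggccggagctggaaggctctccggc

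CAGAC was found once in Tgif1, 201 bases before the RefSeq start, which lies beyond the end of the sequence shown. It was found once in Tgfbr2, 160 bases before the RefSeq start, and 42.2% of 27026 promoters of this length hold it. It was not found in the windows of Tgfb1, Tgfbr1, Smad3 or Ski. Of the 6 windows searched, TGTCA was found once in that of Tgif1 alone (40.4% of promoters). GGCGC was found 7 times in Ski, 3 times in Tgfbr1 and once in Tgfb1 (32.1%), and GTCTAGAC in none of the 6 (0.174%). The Ski window had a GC content of 87.6%, Tgfb1 75.2%, Tgfbr1 74.8%, Smad3 69.2%, Tgif1 59.6% and Tgfbr2 58.4%, against a median of 52.0% over all promoters.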

How the data were processed

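RNA of sorted cells was made into SMART-seq HT libraries, a kit that does not mark strand. The submitters' notes name fastp 0.23.0 for trimming, HISAT2 2.1.0 as aligner, mm10 as genome and featureCounts (Subread 1.6.5) as counter. The authors deposited raw counts per gene, in whole numbers. The annotation release is not given in the sources used here. Identifiers were matched to GENCODE vM21, and the 849 without a name hold 0.104% of counts. FL G1-ILC replicates 2 and 3 gave a chi-square over its degrees of freedom of 1.17, where the 28 other replicate pairs gave 3.38 to 10.7; their counts were added. Counts were scaled by TMM, filtered with filterByExpr (minimum count 10) and tested in edgeR 4.0.16 (R 4.3.3) by the quasi-likelihood F test in one fit of 8 groups and 24 samples, with Benjamini-Hochberg adjustment over 14123 genes for each of 13 comparisons. The SE is the log2 fold change over the square root of F. The script was tested on simulated data. Alternatives were DESeq2 1.42.0, RLE size factors, other filters, all 25 libraries, a replicate block, fits of only the compared groups, a limit of 1 on the log2 fold change and leaving out each library.

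The members and lists were chosen with earlier results of these data known. Beyond the members, the rule for named genes took, per comparison and direction, up to 3 called pathway genes with the largest log2 fold change among those with an average log2 CPM of at least 3 (Mmp9, Bmp7 and Tgfb3 are given as levels), and for each member the 3 genes most alike it, a few of which are not reported here. Other named genes, such as Il22, C1qb and Smad1, were picked after their values were seen. Same-numbered libraries were not paired: correlations of their deviations ran from -0.0887 to 0.0393.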

Additional observations from a re-analysis of the deposited data

Results flagged for a closer look

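Among 20 sets of 4 libraries tested (10 genes in AL 7R- ILC1s and in LPL ILC1s), 2 held a library far from the others, where chance marks about 1 in 20 such sets. Tgfb1 in AL 7R- ILC1s had 19.9 CPM in replicate 2 against 10.7, 10.7 and 11.1 CPM in the others, a gap of 0.960 of the range against a critical value of 0.829. Without that library, the log2 fold change of Tgfb1 in AL 7R+ over AL 7R- ILC1s was 0.78 (adjusted p = 0.0305, edgeR), where all libraries gave 0.50 (adjusted p = 0.265). Ski in LPL ILC1s had 116 CPM in replicate 4 against 78.0 to 83.5 CPM in the others, a gap of 0.855 of the range. For Tgif1 the effect of ILC1s over NK cells differed between marrow and liver by 0.95 on the log2 scale (adjusted p = 0.0399, edgeR), from −1.29 in liver to −0.34 in marrow.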

How the results depend on the processing

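Over 10 genes and 12 comparisons, 3683 of 3840 values under an alternative kept their side of the threshold, 133 lost and 24 gained a call. Where either fit made a call, 0 values reversed their direction. Uncalled values could change sign, as Tgfb1 did in AL 7R- ILC1s over AL NK cells (−0.22 to 0.57 with 1 library left out). DESeq2 and all 25 libraries kept each call, and DESeq2 added Smad7 and Skil in AL 7R- ILC1s over AL NK cells (adjusted p = 0.049 and 0.0353) and Smad2 in SG G1-ILCs over LPL ILC1s (0.0329). Requiring a log2 fold change of at least 1 left 2 members called in AL 7R- ILC1s over AL NK cells, against 11.3% of all genes. It left 2 in AL 7R+ ILC1s over AL NK cells (8.9%) and 4 in LPL ILC1s over AL 7R+ ILC1s (30.2%). None, 0, were left in BM iILC1s over BM NK cells (7.3%), AL 7R+ over AL 7R- ILC1s (2.8%) and FL G1-ILCs over AL 7R- ILC1s (21.6%). The same held for AL 7R+ over BM iILC1s (4.3%) and the difference between marrow and liver (2.1%). By its construction this limit can only remove calls. Fits of only the compared groups called 0 in AL 7R+ over AL 7R- ILC1s and 0 in the difference between marrow and liver, lost Tgif1 in FL G1-ILCs over AL 7R- ILC1s (adjusted p = 0.0857) and AL 7R+ ILC1s over BM iILC1s (0.0988) and Smad4 in SG G1-ILCs over LPL ILC1s (0.0601), and gained Skil in AL 7R- ILC1s over AL NK cells (0.0153). Without a filter Skil was the 1 member called in BM NK over AL NK cells (−0.54, adjusted p = 0.0238, edgeR) and was also gained in AL 7R- ILC1s over AL NK cells (0.00204) and BM iILC1s over BM NK cells (0.00182), while Tgfbr2 and Smad2 in AL 7R+ ILC1s over AL NK cells (0.139 each) and Smad4 in SG G1-ILCs over LPL ILC1s (0.215) were lost; the cause was not tested. RLE factors and a stricter filter each added Smad2 in SG G1-ILCs over LPL ILC1s (0.0446 and 0.044). The replicate block called 1 member in AL 7R+ over AL 7R- ILC1s and lost Ski in AL 7R+ ILC1s over AL NK cells, Smad7 in AL 7R+ over AL 7R- ILC1s and Smad4 in SG G1-ILCs over LPL ILC1s (adjusted p = 0.0604, 0.0839 and 0.128). The numbers do not pair the samples, since 3 of 24 libraries correlated best with their own number.

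With 1 library left out, the members called ranged from 4 to 6 in AL 7R- ILC1s over AL NK cells, 3 to 7 in AL 7R+ ILC1s over AL NK cells (3 without AL 7R+ ILC1 replicate 3 or AL NK replicate 2, 4 without AL NK replicate 1), 2 to 2 in BM iILC1s over BM NK cells, 0 to 3 in AL 7R+ over AL 7R- ILC1s, 6 to 8 in FL G1-ILCs over AL 7R- ILC1s, 0 to 3 in AL 7R+ ILC1s over BM iILC1s (0 without AL 7R+ ILC1 replicate 2 or BM iILC1 replicate 1 or 2), 0 to 0 in BM NK over AL NK cells, 8 to 9 in LPL ILC1s over AL 7R+ ILC1s, 6 to 8 in SG G1-ILCs over AL 7R- ILC1s, 9 to 9 in SG G1-ILCs over AL NK cells, 6 to 8 in SG G1-ILCs over LPL ILC1s and 0 to 1 in the difference between marrow and liver. Where a comparison rests on 2 AL NK or 2 SG libraries, leaving out 1 assumes that the other varies like the remaining groups.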
